A study of Homo sapiens with 9 samples.

Results

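Hippo pathway genes and genes known as targets of the coactivator YAP were followed across 3 groups of a cell line labelled as retinoblastoma. The 10 genes were taken by name: YAP1, WWTR1, TEAD1, TEAD4, LATS2, AMOTL2, AJUBA, CYR61, CTGF and ANKRD1. They are 10 of the 27407 features in the expression table, and all 10 were among the 18767 features abundant enough to be tested. The line is Weri-RB1/CRP, labelled as resistant to carboplatin, and the study's question was the part played by the long noncoding RNA SNHG1 in that resistance. The control group carried the hairpin shNC, and 2 further groups carried shSNHG1#1 or shSNHG1#2, each meant to lower SNHG1. Each group had 3 RNA-seq libraries. All groups share the resistant line and its medium with serum. The labels mention carboplatin exposure for none of the libraries, and no parental line was analysed here. SNHG1 was not analysed here, so the groups follow the labels, and the knockdown itself was not checked.

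In the Hippo pathway, the kinases MST and LATS phosphorylate YAP (gene YAP1) and TAZ (gene WWTR1), which then stay in the cytoplasm or are degraded. Unphosphorylated YAP and TAZ enter the nucleus, bind the TEAD factors and activate genes such as CYR61, CTGF and ANKRD1. LATS2 and AMOTL2 inhibit YAP and are also among its targets, which closes a feedback loop. Retinoblastoma cells are known for carrying little YAP.

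The libraries held 21502093 to 21606498 estimated counts each, and levels are given below as FPKM, fragments scaled by transcript length and by library size. The labels do not tell whether the libraries of a group are separate cultures. A p-value here reflects the scatter among these libraries alone, and that scatter may be technical. Markers were compared with the labelled cell type: of 11 photoreceptor markers in the table, 9 lay below 1 FPKM in every group, among them CRX (at most 0.03) and RCVRN (at most 0.09), while GNAT2 lay at 15.97 to 19.56. The epithelial keratin KRT8 lay at 745 to 790.25 FPKM, and the intermediate filament VIM at 713.5 to 723.8 FPKM in shNC. VIM was lower with both hairpins, at means of 472.2 and 473.5 FPKM (1.57-fold and 1.59-fold by counts). These markers do not match the labelled retinoblastoma type, and the line is called here by its label alone. The library shSNHG1#1 replicate 1 stood apart from the rest. Its 8 fibroblast markers summed to 24.6 FPKM, against 3.28 to 4.63 in shNC and 6.01 to 7.23 in the other 5 hairpin libraries, and 7 of the 8 were highest there. Of 7 tested fibroblast markers, 4 were called higher with shSNHG1#1 and 3 with shSNHG1#2, and none lower. Those called with both hairpins were COL1A1 (log2 1.18 and 1.06), THY1 (1.11 and 1.15) and PDGFRA (1.02 and 0.77). The PDGFRA call with shSNHG1#2 was lost under 2 of 16 alternative fits. LUM, called with shSNHG1#1 alone, lost its call under 5 of 15, the fit without shSNHG1#1 replicate 1 among them. With shSNHG1#2 the other 4 did not pass, with negative log2 estimates (DCN -4.75, LUM -2.93, PDGFRB -1.35 and COL3A1 -0.39). The immediate early gene FOS stood at 43.98 to 46.2 FPKM in shNC, at 23.7 in shSNHG1#1 replicate 1, at 5.77 and 5.27 in the other libraries of its group and at 6.12 to 6.95 with shSNHG1#2, so that library lay between the controls and the other hairpin libraries. The early response genes FOS (log2 -1.97 and -2.85), EGR1 (-2.70 and -2.87), JUN (-2.18 and -2.14) and ATF3 (-1.21 and -1.15), named after their values were seen, fell with both hairpins alongside CYR61 and CTGF. The changes of WWTR1, CTGF, CYR61 and ANKRD1 with shSNHG1#1 are given below with and without the library shSNHG1#1 replicate 1. The falls of FOS and EGR1 with shSNHG1#1 are given with it only. Among 16 alternative fits, these log2 estimates reached -3.06 for FOS and -3.24 for EGR1. The part of the fibroblast markers in these results was not tested. In RNA from a whole culture, fewer cells of a type and less RNA per cell cannot be told apart.

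Of the 10 genes, 8 changed with each SNHG1 hairpin, and they were the same 8 in the same direction. CYR61, CTGF, ANKRD1, AMOTL2, LATS2, AJUBA and YAP1 fell, WWTR1 rose, and TEAD1 and TEAD4 did not pass the test. A change was called at an adjusted p below 0.05 in edgeR's quasi-likelihood test with Benjamini-Hochberg adjustment over all tested features. Both comparisons use the same 3 shNC libraries, so they are not independent of each other. Changes were common in the whole table: with shSNHG1#1, 48.1% of tested features were called, 24.5% higher and 23.5% lower, and with shSNHG1#2, 46.2% were called, 23.3% higher and 22.8% lower. The 7 of 10 genes that fell thus stand beside a background of 23.5% and 22.8%. Scaling by library totals alone turned the shSNHG1#2 split from 4382 higher and 4287 lower features into 5344 higher and 3426 lower, and the 8 genes kept their calls and directions.

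The falls differed in size among the genes. With shSNHG1#1, 4 genes fell at least 1.5-fold (CYR61, ANKRD1, CTGF and AMOTL2), beside 7.3% of all tested features, and with shSNHG1#2, LATS2 and AJUBA joined them to make 6, beside 6.38%. The median log2 fold change of the 10 genes was -0.53 with shSNHG1#1 and -0.59 with shSNHG1#2, where the median of all features was 0.02 and 0.01. The FPKM ranges of the hairpin and control libraries lay apart for 9 of the 10 genes with shSNHG1#1 and for all 10 with shSNHG1#2, in a table where 53.3% and 52.6% of features did so. Non-overlap was thus the common case in this table.

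**Figure D1:**
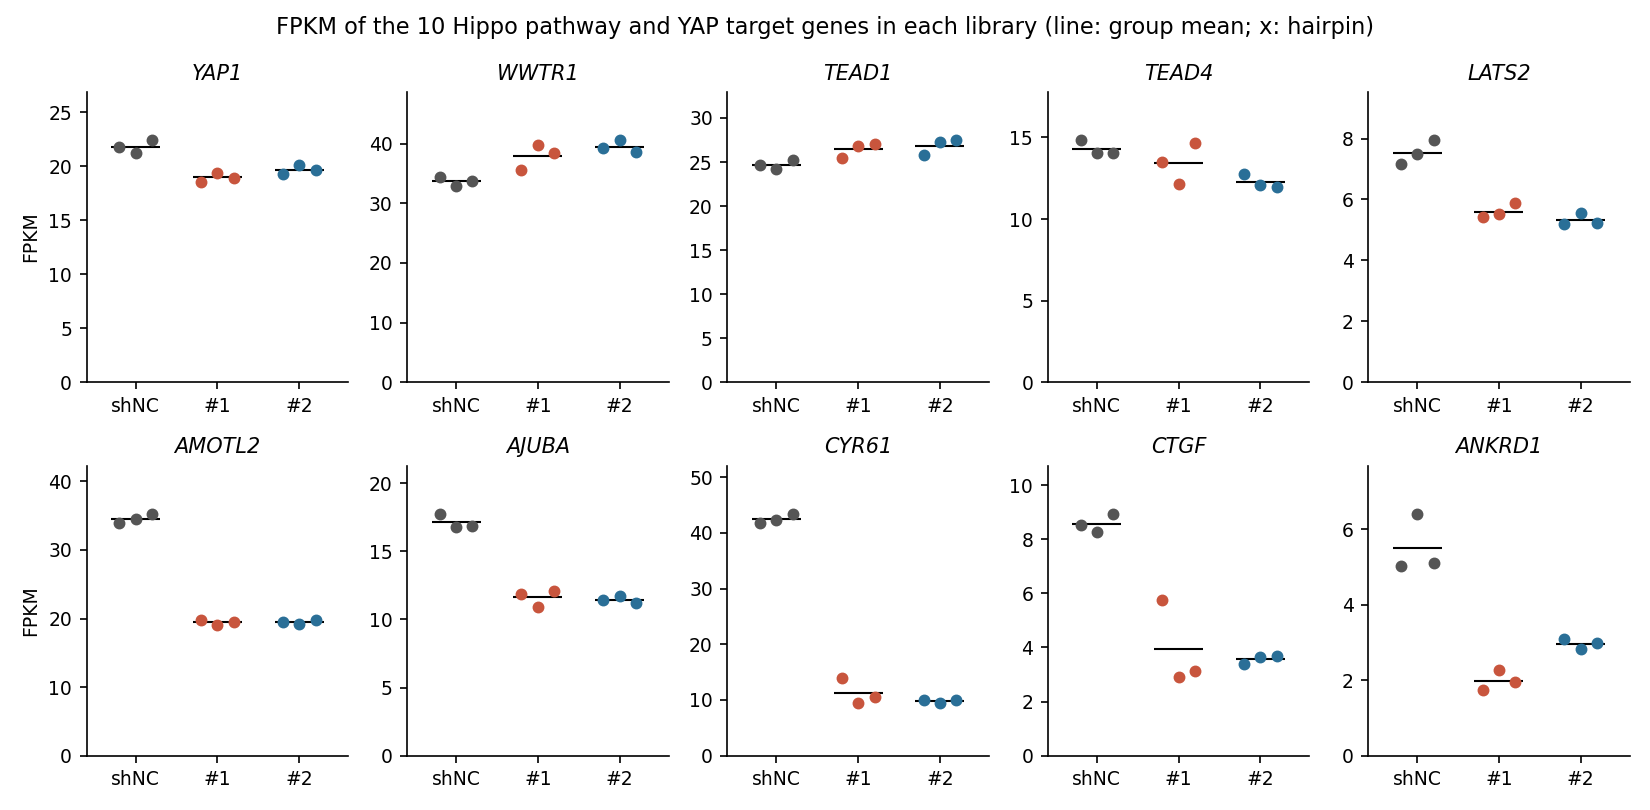
FPKM of each of the 10 genes (vertical axes, linear and starting at 0) in the 3 libraries of shNC, shSNHG1#1 and shSNHG1#2. Points are libraries and lines are group means. CYR61 drops from 41.8 to 43.4 FPKM in shNC to 9.47 to 14.0 and 9.52 to 10.04, while TEAD1 and TEAD4 stay near their control levels.

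The 2 coactivators moved in opposite directions and by small amounts. YAP1, which encodes YAP, stood at 21.8, 21.2 and 22.4 FPKM in the shNC libraries, at 18.5, 19.4 and 18.9 with shSNHG1#1 and at 19.3, 20.1 and 19.6 with shSNHG1#2. Every hairpin library lay below every control library. On the log2 scale YAP1 fell by 0.24 (SE 0.03, adjusted p = 1.1e-04 in edgeR) with shSNHG1#1 and by 0.20 (SE 0.03, adjusted p = 3.6e-04) with shSNHG1#2, which is 1.18-fold and 1.15-fold. WWTR1, which encodes the YAP paralog TAZ, stood at 34.3, 32.9 and 33.8 FPKM in shNC, at 35.6, 39.8 and 38.4 with shSNHG1#1 and at 39.2, 40.5 and 38.6 with shSNHG1#2. All 6 hairpin libraries lay above the controls, though shSNHG1#1 replicate 1 lay close to them. WWTR1 rose 1.14-fold (log2 0.18, SE 0.04, adjusted p = 0.00463) with shSNHG1#1 and 1.17-fold (log2 0.23, SE 0.04, adjusted p = 0.00112) with shSNHG1#2. Without shSNHG1#1 replicate 1, its rise with shSNHG1#1 was 1.16-fold (log2 0.21, adjusted p = 0.00184 in edgeR).

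WWTR1 was the more abundant of the pair in every library. The summed level of both coactivators was 55.4 ± 1.19 FPKM (SD, n = 3) in shNC, 56.9 ± 2.54 with shSNHG1#1 and 59.1 ± 1.35 with shSNHG1#2. WWTR1 made up 60.7% ± 0.541 of that sum in shNC, 66.7% ± 0.742 with shSNHG1#1 and 66.7% ± 0.408 with shSNHG1#2. The highest control share was 61.2% and the lowest hairpin share 65.8%, so the makeup of the pair shifted by more than the spread with both hairpins. The sums overlapped the control range of 54.04 to 56.1 FPKM with shSNHG1#1 and lay above it, at 58.2 to 60.7 FPKM, with shSNHG1#2.

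The TEAD factors carry YAP and TAZ on DNA, and neither of the 2 listed members passed the test. TEAD1 stood at 24.7, 24.2 and 25.2 FPKM in shNC, at 25.5, 26.9 and 27.1 with shSNHG1#1 and at 25.8, 27.2 and 27.5 with shSNHG1#2. The hairpin libraries lay just above the controls in FPKM, but the log2 fold changes from counts were 0.03 (95% interval -0.03 to 0.10, adjusted p = 0.418) and 0.04 (-0.03 to 0.10, adjusted p = 0.362). TEAD4 stood at 14.8, 14.1 and 14.1 FPKM in shNC, at 13.5, 12.2 and 14.7 with shSNHG1#1 and at 12.8, 12.1 and 11.96 with shSNHG1#2. Its range overlapped the control range with shSNHG1#1 and lay below it with shSNHG1#2. The log2 fold changes of TEAD4 were -0.04 (-0.17 to 0.08, adjusted p = 0.576) and -0.13 (-0.26 to -0.01, adjusted p = 0.0774).

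TEAD1 and TEAD4 are the larger part of a TEAD family total of 61.2 FPKM in shNC, 62.3 with shSNHG1#1 and 64.2 with shSNHG1#2. The family member TEAD3, named after its values were seen, rose from 3.43 ± 0.397 FPKM to 5.66 ± 0.212 and 5.77 ± 0.286 (SD, n = 3). Its change from counts was smaller than that from FPKM, at 1.27-fold (adjusted p = 7.3e-04 in edgeR) and 1.29-fold (adjusted p = 5.2e-04). TEAD3 held 5.6% of the family total in shNC, 9.09% with shSNHG1#1 and 8.99% with shSNHG1#2.

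**Figure D2:**
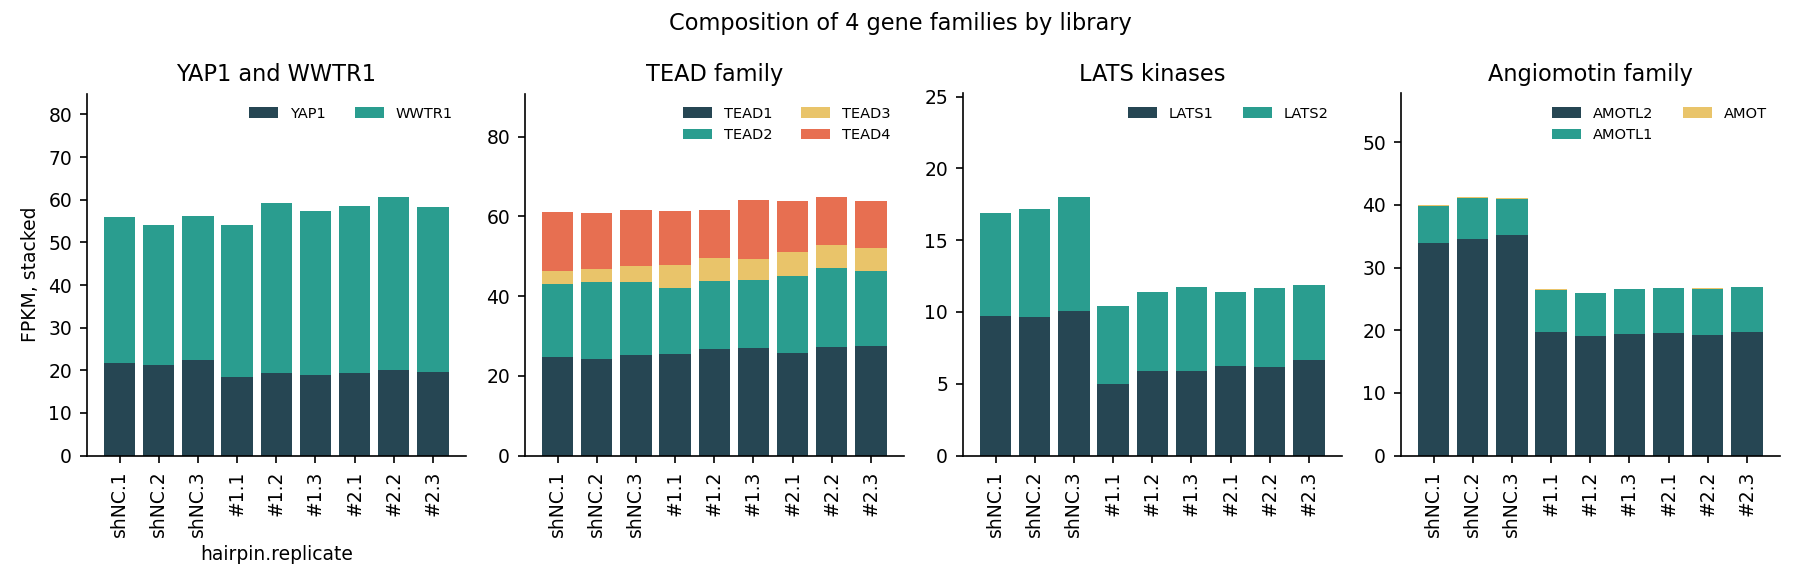
Stacked FPKM of 4 gene families (vertical axes, linear from 0) in each of the 9 libraries, with hairpin and replicate on the horizontal axis (#1 and #2 stand for shSNHG1#1 and shSNHG1#2). The WWTR1 part of the coactivator sum is larger with the hairpins, and the LATS and angiomotin bars are lower, from means of 17.3 and 40.8 FPKM in shNC to 11.2 and 26.4 with shSNHG1#1.

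The 2 inhibitors of YAP among the 10 genes, LATS2 and AMOTL2, fell with both hairpins. LATS2, a kinase that phosphorylates YAP and TAZ, stood at 7.18, 7.49 and 7.94 FPKM in shNC, at 5.41, 5.51 and 5.87 with shSNHG1#1 and at 5.19, 5.54 and 5.22 with shSNHG1#2. The highest hairpin library lay well under the lowest control. LATS2 fell by 0.50 on the log2 scale (SE 0.05, adjusted p = 1.1e-05 in edgeR) and by 0.59 (SE 0.05, adjusted p = 3.6e-06), or 1.41-fold and 1.51-fold. AMOTL2, an angiomotin-like protein that binds YAP at cell junctions, stood at 33.96, 34.5 and 35.3 FPKM in shNC, at 19.8, 19.1 and 19.4 with shSNHG1#1 and at 19.5, 19.2 and 19.8 with shSNHG1#2. The 6 hairpin libraries spanned less than 1 FPKM, far below the controls. AMOTL2 fell 1.83-fold (log2 -0.87, SE 0.03, adjusted p = 1.9e-09) and 1.85-fold (log2 -0.89, SE 0.03, adjusted p = 2.3e-09).

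The paralogs of both genes were examined beside them. LATS1, the other LATS kinase, stood at 9.81 ± 0.229 FPKM in shNC, 5.59 ± 0.514 with shSNHG1#1 and 6.35 ± 0.285 with shSNHG1#2. By counts LATS1 fell 1.47-fold (adjusted p = 1.1e-05) and 1.34-fold (adjusted p = 9.2e-05), less than its FPKM ratios of 1.75 and 1.54. Dividing counts by FPKM gives the length used for each library, and for LATS1 this ranged over 4796 to 5390 bases in the control libraries, 6077 to 6487 with shSNHG1#1 and 6084 to 6274 with shSNHG1#2. Its FPKM therefore moved with that length as well as with its counts. LATS1 and LATS2 summed to 17.3 ± 0.594 FPKM in shNC and to 11.2 ± 0.694 and 11.7 ± 0.246 with the hairpins. In the angiomotin family, AMOTL2 made up 84.7% of the total in shNC, 73.6% with shSNHG1#1 and 72.7% with shSNHG1#2. AMOTL1 went the other way and rose from 6.08 FPKM to 6.87 (log2 0.22, adjusted p = 9.3e-04 in edgeR) and 7.22 (log2 0.21, adjusted p = 0.00161), though with shSNHG1#1 its call was lost by limma on FPKM (adjusted p = 0.0585). The family total was 40.8 ± 0.691 FPKM in shNC, 26.4 ± 0.332 with shSNHG1#1 and 26.8 ± 0.131 with shSNHG1#2.

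AJUBA is a LIM-domain protein that binds LATS kinases and restrains them, so its known role is opposite to that of LATS2. Its level was 17.7, 16.8 and 16.9 FPKM in shNC, 11.9, 10.9 and 12.1 with shSNHG1#1 and 11.4, 11.7 and 11.2 with shSNHG1#2. No hairpin library reached the control range. AJUBA fell 1.47-fold (log2 -0.56, SE 0.04, adjusted p = 7.6e-07 in edgeR) and 1.51-fold (log2 -0.59, SE 0.04, adjusted p = 6.2e-07). LIMD1, a relative of AJUBA that also binds LATS, fell from 43.1 ± 1.03 FPKM to 28.0 ± 0.499 and 30.9 ± 0.876, by 0.54 and 0.52 on the log2 scale.

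The known YAP targets CYR61, CTGF and ANKRD1 all fell with both hairpins. With shSNHG1#2 the falls of ANKRD1 (log2 interval -1.22 to -0.67) and CTGF (-1.76 to -0.85) were not separable in size from that of AMOTL2 (-0.95 to -0.83). With shSNHG1#1 the fall of CTGF (-1.61 to -0.70) was not separable from that of AMOTL2 (-0.94 to -0.81) either. CYR61, a matricellular protein of the CCN family, stood at 41.8, 42.4 and 43.4 FPKM in shNC, at 14.0, 9.47 and 10.5 with shSNHG1#1 and at 10.04, 9.52 and 10.02 with shSNHG1#2. The highest hairpin library, shSNHG1#1 replicate 1, lay far under the lowest control. CYR61 fell 3.85-fold (log2 -1.94, SE 0.11, adjusted p = 1.6e-07 in edgeR) with shSNHG1#1 and 4.43-fold (log2 -2.15, SE 0.11, adjusted p = 1.0e-07) with shSNHG1#2. Only 102 and 86 of the 18767 features had a lower log2 fold change. In shNC it was the most abundant of the 10 genes, and with both hairpins it was the seventh, near AJUBA.

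CTGF, another CCN protein and a widely used YAP reporter, stood at 8.51, 8.26 and 8.94 FPKM in shNC, at 5.76, 2.91 and 3.13 with shSNHG1#1 and at 3.4, 3.64 and 3.7 with shSNHG1#2. The library shSNHG1#1 replicate 1 was the highest of the 6 and stayed below every control. CTGF fell 2.22-fold (log2 -1.15, SE 0.20, adjusted p = 7.8e-04) and 2.47-fold (log2 -1.31, SE 0.21, adjusted p = 3.9e-04). Without shSNHG1#1 replicate 1, the fall with shSNHG1#1 was 2.92-fold (adjusted p = 4.7e-07) for CTGF and 4.45-fold (adjusted p = 1.4e-09) for CYR61. Both falls were thus larger without that library.

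ANKRD1, a nuclear ankyrin-repeat protein, was the least abundant member, with 210 to 265 estimated counts per shNC library. Its level was 5.02, 6.41 and 5.12 FPKM in shNC, 1.74, 2.27 and 1.96 with shSNHG1#1 and 3.1, 2.84 and 2.98 with shSNHG1#2. The 3 groups did not overlap, with shSNHG1#2 between the others. ANKRD1 fell 2.83-fold (log2 -1.50, SE 0.13, adjusted p = 3.5e-06) and 1.93-fold (log2 -0.95, SE 0.12, adjusted p = 9.7e-05). Unlike CTGF and CYR61, it was lowest, not highest, in shSNHG1#1 replicate 1, and without that library its fall with shSNHG1#1 was 2.68-fold (adjusted p = 2.6e-05).

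**Figure D3:**
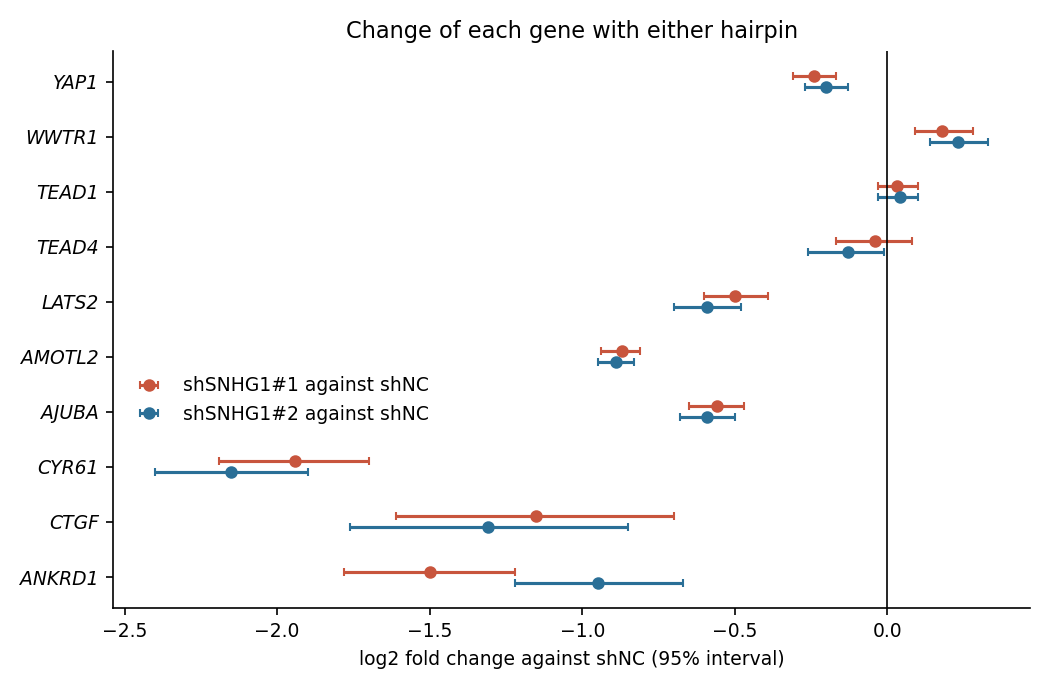
Log2 fold change against shNC (horizontal axis) of each of the 10 genes for shSNHG1#1 and shSNHG1#2, with points for the edgeR estimate and bars for its 95% interval. CYR61 lies lowest at -1.94 and -2.15, and WWTR1 lies above 0 at 0.18 and 0.23.

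Promoter sequences of genes that fell and hold the motif GGAATG are shown, since TEAD factors bind that motif. RefSeq windows on GRCh38.p14 were matched for 7 of the 10 genes, all but CYR61, TEAD1 and TEAD4, and the 250 bases before each start site were searched for GGAATG on both strands (CATTCC on the other) and for TGANTCA, the site of the partner factor AP-1. The motifs do not overlap each other in the sequences shown. GGAATG occurred in at least 1 window of 5 of the 7 genes, and not in those of WWTR1, which rose, and LATS2, which fell. The 7 genes had 10 windows, and AMOTL2 and AJUBA each held the motif in 1 of 2. Of all 35116 promoter windows of that length, 11.9% held it. That share is by window, not by gene, and a gene can have more than 1 window. CTGF held 3 copies, at 169, 104 and 95 bases before the start, as 0.0826% of windows do. ANKRD1 held 2, at 220 and 128 bases before the start, as 0.94% of windows do with at least 2, and it also held TGANTCA at 195 bases, found in 6.57% of windows. A match describes the letters and does not show binding. The windows of CTGF at chr6:131951373-131951622 and of ANKRD1 at chr10:90921088-90921337, both on the minus strand, read as follows, with GGAATG and TGANTCA matches in capitals.
CTGF: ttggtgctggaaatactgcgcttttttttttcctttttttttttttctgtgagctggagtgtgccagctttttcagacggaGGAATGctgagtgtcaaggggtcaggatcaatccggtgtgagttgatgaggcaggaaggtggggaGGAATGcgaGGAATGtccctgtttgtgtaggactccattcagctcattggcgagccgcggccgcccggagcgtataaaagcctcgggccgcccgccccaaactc
ANKRD1: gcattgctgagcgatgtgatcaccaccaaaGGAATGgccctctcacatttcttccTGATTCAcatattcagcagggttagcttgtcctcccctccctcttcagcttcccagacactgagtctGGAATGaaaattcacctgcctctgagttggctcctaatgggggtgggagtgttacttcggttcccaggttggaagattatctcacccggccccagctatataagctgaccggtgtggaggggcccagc

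Single copies lay before AMOTL2, AJUBA and YAP1, which are shown as short stretches around the match, again in capitals. The AMOTL2 stretch lies at chr3:134374501-134374526 on the minus strand, 69 bases before a start site. The AJUBA stretch lies at chr14:22976886-22976911 on the minus strand, 59 bases before. The YAP1 stretch lies at chr11:102110275-102110300 on the plus strand, 162 bases before.
AMOTL2: gaaactctcaCATTCCtggcatagca
AJUBA: gaagttggctGGAATGaagccaaagc
YAP1: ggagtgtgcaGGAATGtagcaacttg

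CYR61 and CTGF belong to the CCN family, whose summed level was 87.7 ± 1.28 FPKM (SD, n = 3) in the control libraries, 25.4 ± 5.15 with shSNHG1#1 and 28.3 ± 0.455 with shSNHG1#2. A further CCN gene, WISP2, was named after its values were seen. It fell from 35.5 ± 1.43 FPKM to 8.61 ± 1.32 and 13.4 ± 0.257, by 4.19-fold (adjusted p = 1.6e-08 in edgeR) and 2.79-fold (adjusted p = 2.0e-07). WISP2 was also higher with shSNHG1#2 than with shSNHG1#1 (log2 0.59, adjusted p = 0.00695).

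The 2 hairpins were compared with each other for each gene. None of the 10 genes passed the test, where 3.12% of all tested features did, and 1 had an unadjusted p below 0.05 in edgeR. That gene was ANKRD1, 1.47-fold higher with shSNHG1#2 (log2 0.55, interval 0.26 to 0.84, adjusted p = 0.0542). Its call depended on the method, since DESeq2 gave an adjusted p of 0.0202 and library totals alone gave 0.0429. ANKRD1 was also the 1 gene of 10 whose FPKM ranges lay apart between the hairpins, beside 19.2% of features. The intervals of the other differences were narrow for AMOTL2 (-0.08 to 0.05), YAP1 (-0.04 to 0.11) and AJUBA (-0.12 to 0.06) and wide for CTGF (-0.63 to 0.32) and CYR61 (-0.48 to 0.07). Without shSNHG1#1 replicate 1 the CTGF difference changed sign, from -0.15 to 0.23 (adjusted p = 0.287). The CYR61 difference went from -0.20 to -0.00 (adjusted p = 0.987 in edgeR) without that library.

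**Figure D4:**
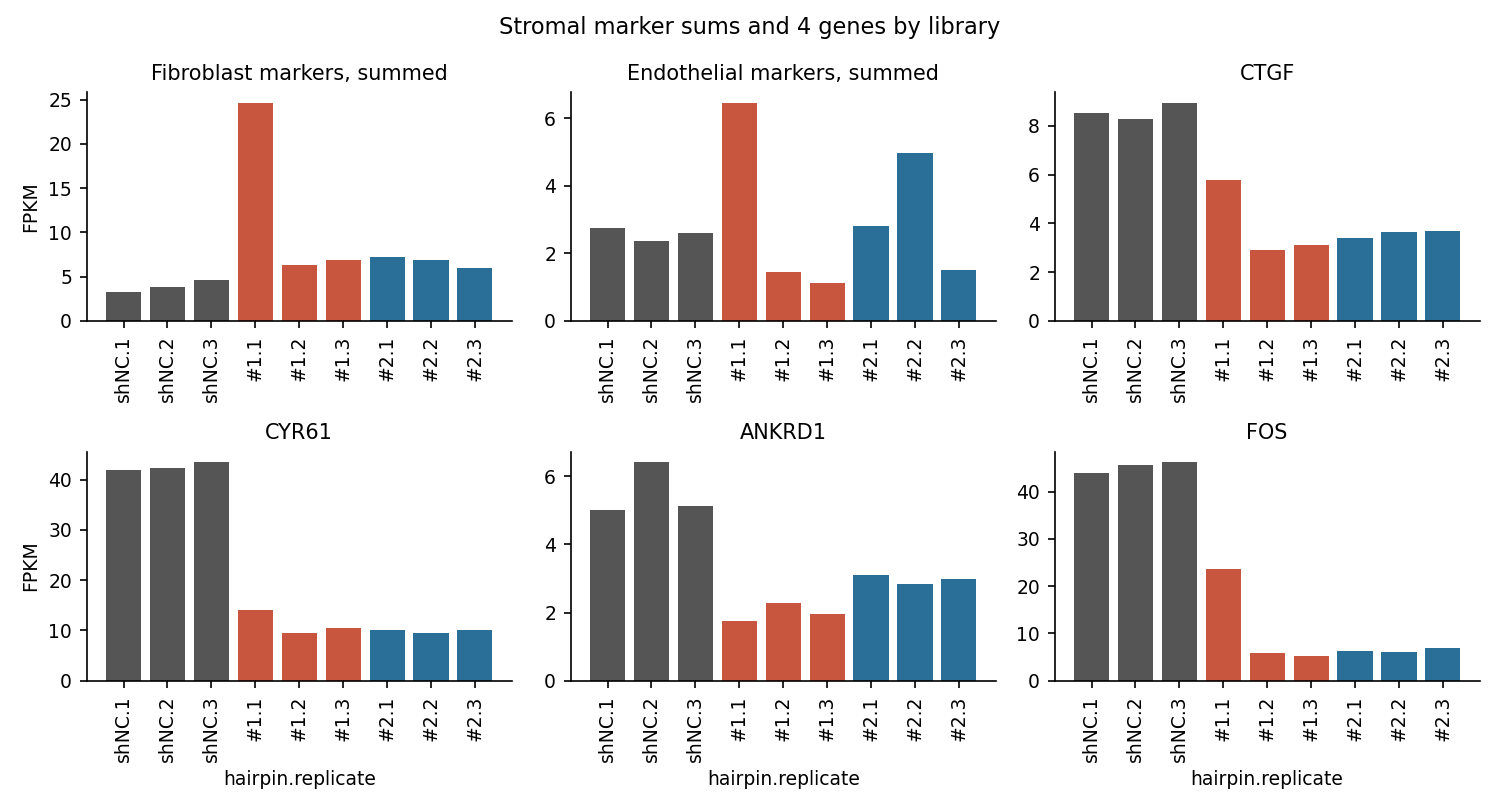
FPKM by library (vertical axes, linear from 0) of summed fibroblast markers, summed endothelial markers, CTGF, CYR61, ANKRD1 and FOS, with hairpin and replicate on the horizontal axis. In shSNHG1#1 replicate 1 the fibroblast markers reach 24.6 FPKM against 3.28 to 4.63 in shNC and 6.01 to 7.23 in the other hairpin libraries, and CTGF and CYR61 are the highest of their group.

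Other genes of the pathway were taken as 3 lists. Of 24 genes of the kinase cassette and its upstream regulators, 9 rose and 11 fell with shSNHG1#1, and 8 rose and 9 fell with shSNHG1#2, with medians of 0.04 and -0.04 on the log2 scale, in a table where 48.1% and 46.2% of features were called. Some of these calls were unstable: with shSNHG1#1, RASSF5 lost its call under 9 of 16 alternatives and DCHS1 under 3, and with shSNHG1#2, MOB1B under 6. Those that fell included SAV1, the scaffold of the MST kinases, from 15.0 ± 1.01 FPKM to 10.7 ± 0.345 and 12.1 ± 0.707, and WWC3, a KIBRA relative, by 0.40 and 0.36 on the log2 scale. Those that rose included the polarity protein SCRIB (log2 0.44 and 0.47) and MAP4K4, a kinase that acts on LATS in parallel to MST (0.32 and 0.15). The list thus moved in both directions, and by library totals alone its median with shSNHG1#2 was 0.03.

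Of 18 partners of YAP and TAZ and LATS-binding LIM proteins, 16 were tested. With shSNHG1#1, 5 rose and 6 fell, and with shSNHG1#2, 5 rose and 5 fell. The list medians were -0.03 and -0.02 on the log2 scale. Over all tested features, 24.5% were higher and 23.5% lower with shSNHG1#1, and 23.3% and 22.8% with shSNHG1#2. With shSNHG1#2, those that rose were TEAD3, VGLL3, AMOTL1, YWHAB and BTRC, and those that fell were VGLL4, LIMD1, YWHAE, YWHAZ and CSNK1D, some of them named after their values were seen. YWHAZ lost its call under 5 of 16 alternatives with shSNHG1#1 and under 2 with shSNHG1#2, scaling by library totals and limma on FPKM among them with each hairpin. VGLL4, which competes with YAP for TEAD, fell from 19.4 ± 0.97 FPKM to 15.6 ± 0.551 and 15.5 ± 0.303, by 0.39 and 0.44 on the log2 scale. CSNK1D, a kinase that takes part in marking YAP for degradation, fell by 0.35 and 0.37 on the log2 scale. YWHAB, a 14-3-3 protein that holds phosphorylated YAP in the cytoplasm, rose by 0.32 and 0.24.

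Of 21 genes of a YAP and TAZ target signature, none of them among the 10, 11 fell and 3 rose with each hairpin, with medians of -0.25 and -0.19. Over all features, 23.5% and 22.8% were lower and 24.5% and 23.3% higher, a background against which both counts are to be read. IGFBP3, a binding protein for insulin-like growth factors, fell 3.92-fold and 2.47-fold, from 2134 ± 18.7 FPKM to 557.5 ± 9.58 and 908.8 ± 4.23. F3, the tissue factor that starts coagulation, fell 3.58-fold and 2.43-fold, from 14.5 ± 0.442 FPKM to 4.32 ± 0.535 and 6.41 ± 0.342. NUAK2, a kinase, fell 2.63-fold and 2.9-fold from 51.1 ± 0.94 FPKM. The receptor tyrosine kinase AXL fell 1.86-fold and 1.54-fold, and MYOF, a membrane repair protein, fell by 0.65 and 0.69 on the log2 scale. AMIGO2, an adhesion protein, fell 1.74-fold and 1.84-fold. The 3 that rose were GADD45A, ARHGEF17 and BIRC5, named after their values were seen. BIRC5, which encodes the mitotic protein survivin, rose from 13.4 ± 0.414 FPKM to 23.1 ± 0.266 and 18.9 ± 0.314. With shSNHG1#1, ARHGEF17 lost its call under 7 of 16 alternatives, the fit without shSNHG1#1 replicate 1 among them, and GADD45A under 1.

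**Figure D5:**
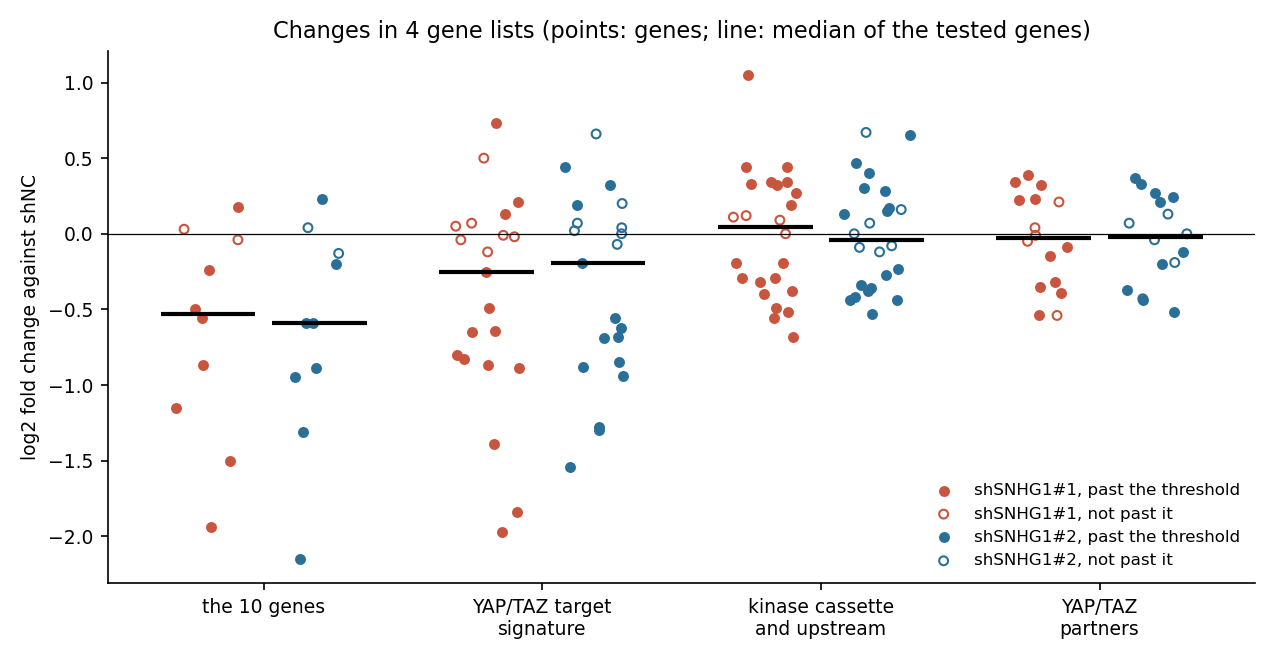
Log2 fold change against shNC (vertical axis) of the genes in each of 4 lists (horizontal axis), for both hairpins, with filled points past the threshold, open points not past it and lines for medians. The target signature has medians of -0.25 and -0.19, and the kinase list lies on both sides of 0.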

How the data were processed

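RNA-seq was analysed in 9 libraries, 3 for each of shNC, shSNHG1#1 and shSNHG1#2, grouped by the labels. The authors deposited estimated counts per gene and a second value headed "exp", taken here as FPKM because its sums differ between libraries and its ratio to the counts gives plausible transcript lengths. The submitters' processing notes name, without a role, RSEM 1.2.12, HISAT2 2.0.4, DESeq2 1.4.5 and Bowtie2 2.2.5. The genome build is not given in the sources used here, nor are annotation and strand. Counts were rounded and tested with edgeR 4.0.16 (R 4.3.3) by quasi-likelihood, with TMM scaling, filterByExpr, all 9 libraries and Benjamini-Hochberg adjustment over 18767 features, and the median biological coefficient of variation was 7.28%. The scripts were tested on simulated data. DESeq2 1.42.0 and limma 3.58.1 on log2(FPKM + 1) served as alternatives. The 10 genes and the lists were chosen with earlier results of these data known, and 1 gene of the target signature is not reported here. Further genes are named as up to 4 per list with the smallest p in each comparison against shNC.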

Additional observations from a re-analysis of the deposited data

Results flagged for a closer look

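The effects of the 2 hairpins were compared by edgeR's test of shSNHG1#2 against shSNHG1#1. They differed for 5 of the pathway and signature genes named by rule and for none of the 10 Hippo genes. Over all tested features, 3.12% differed. The genes named by rule were picked for small p against shNC in these same libraries. Their count is therefore not comparable with that of the 10 genes or of all features. Of the genes named after their values were seen, BIRC5 was lower with shSNHG1#2 at -0.30 (adjusted p = 0.00225) and WISP2 higher by 0.59 (adjusted p = 0.00695). IGFBP3 was higher with shSNHG1#2 by 0.67 on the log2 scale (adjusted p = 2.0e-07), F3 by 0.56 (adjusted p = 0.00153) and AXL by 0.27 (adjusted p = 5.5e-04). MAP4K4 was lower with shSNHG1#2, at -0.17 (adjusted p = 0.00396), a call that was lost without shSNHG1#2 replicate 2 (adjusted p = 0.0551). NUAK2 was lower at -0.14 (adjusted p = 0.0218), and its call was lost under 9 of 16 alternatives (adjusted p up to 0.402).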

How the results depend on the processing

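Of the 10 genes, 8 were called against shNC with each hairpin under all 16 alternatives, except that TEAD1 or TEAD4 joined them in some, and leaving out 1 library gave 8 to 8. Between the hairpins, 1 gene (ANKRD1) was called by library totals alone and 1 by DESeq2, and leaving out 1 library gave 0 to 1. Over all features, 586 differed between the hairpins, against 965 by DESeq2, 386 with only the 2 groups fitted and 297 to 534 with 1 library left out. Leaving out 1 library gave 8051 to 8939 features against shNC with shSNHG1#1 and 7676 to 8753 with shSNHG1#2. Calls between hairpins were 64% higher, and 74.8% by library totals. TEAD1 with shSNHG1#2 passed by library totals (0.10, adjusted p = 0.0277) and limma (0.11, adjusted p = 0.0262), and TEAD4 by limma (-0.21, adjusted p = 0.0249). Among the 10 genes and the genes named by rule, differences that changed sign did not pass the threshold in either fit. The hairpin difference of EGR1, named after its values were seen, changed sign without shSNHG1#1 replicate 1, to 0.36, and passed the threshold there. TEAD4 with shSNHG1#1 was 0.0038 by library totals, and between hairpins AMOTL2 was 0.0036 by library totals and 0.01 by limma, and CSNK1D 0.02 by limma. With 1 library left out, the hairpin difference ranged over -0.02 to 0.03 for TEAD1, -0.02 to 0.06 for SCRIB, -0.06 to 0.01 for AJUBA, -0.03 to 0.02 for CSNK1D and -0.34 to 0.23 for CTGF, and up to 0.01 for AMOTL2. Whether equal replicate numbers mark a pairing is not known. Correlations of deviations from the group means were -0.0361 to 0.0322 for same-numbered libraries and -0.0522 to 0.0474 for other-numbered ones. With the replicate block, 8752, 8421 and 433 features were called and 8, 8 and 0 of the 10 genes, and NUAK2 between hairpins was lost (adjusted p = 0.0524). The causes were not tested. Depth limits ANKRD1 most, with 74 to 265 counts per library.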
